A study of Mus musculus with 48 samples.

Results

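The 8 genes described here are the EGR zinc finger factors Egr1, Egr2 and Egr3, the NAB corepressors Nab1 and Nab2, and the NR4A orphan nuclear receptors Nr4a1, Nr4a2 and Nr4a3. They were taken by name from the 47480 gene symbols of the count tables, and all 8 were tested in each comparison. RNA was sequenced from C2C12 cells, an immortalised mouse myoblast line, as proliferating myoblasts or as differentiated cells after serum reduction. Each of the 12 groups held 4 libraries: non-stretched or stretched cells of either stage at 1 h, 3 h or 6 h. Stretched cells received cyclic equibiaxial stretch on collagen-coated flexible membranes, and non-stretched cells were kept on the same membranes without it. No genotype or drug differed between the groups, and all libraries came from this 1 cell line. The labels give the molecule as nuclear RNA, whereas the study's methods describe RNA extracted from the cells with a column kit and mRNA libraries. The methods say that the samples of a group were separate samples from 2 (myoblasts) or 3 (differentiated cells) independent experiments, so 4 libraries do not stand for 4 experiments. The library titles carry a second code (B27 and B31 in myoblasts, B25, B28 and B17 in differentiated cells) that the labels do not define and that is used here to group libraries. Its 2 codes fit the myoblast account of the methods, but in differentiated cells 3 codes occur only in the group stretched for 1 h, and the other groups carry 2.

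EGR proteins bind GC-rich sites in promoters, and their genes belong to the immediate early class, which is transcribed within minutes of a stimulus without new protein synthesis. ERK signalling reaches the Egr1 promoter through ELK1 and serum response factor (SRF), of which SRF binds CArG boxes, while CREB acts through cyclic AMP response elements (CRE). NAB1 and NAB2 bind EGR proteins and repress their activity, and Nab2 is itself an EGR target, which closes a feedback loop. NR4A receptors act without a known natural ligand, bind the NBRE element as monomers, and in skeletal muscle are induced by exercise and adrenergic signals and regulate genes of glucose and lipid use. EGR3 is required for muscle spindle development, and EGR2 is best known for peripheral myelination.

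In the mm10 annotation Egr2 lies at chr10:67535475-67542188, Egr3 at chr14:70077203-70082614, Nr4a1 at chr15:101254269-101274795 and Nr4a3 at chr4:48045153-48086447, all on the plus strand. Nab1 (chr1:52457294-52500679), Nab2 (chr10:127660918-127668568) and Nr4a2 (chr2:57106830-57124003) are on the minus strand. The sequences upstream of the members' start sites are shown because these factors are known to be controlled there. RefSeq promoter entries of the mm10 assembly were found for 6 of the 8 genes, and Egr1 and Egr3 had none. Windows of 250 bases before the start nearest to the GENCODE principal start were taken, and only the part before any annotated exon of the gene was searched. That part was 250 bases for Egr2, Nr4a1 and Nr4a2, 243 for Nab2, 98 for Nr4a3 and 19 for Nab1. Both strands were searched for the CRE core TGACG, the full CRE TGACGTCA, the CArG box, the EGR site GCGTGGGCG or GCGGGGGCG, the NBRE AAAGGTCA and the AP-1 site TGACTCA. A full CRE holds 2 overlapping CRE cores and would count as 2. The printed part holds no annotated exon of its own gene. For Egr2 and Nr4a1 it lies within an intron of longer annotated transcripts, downstream of their first exons. Capitals mark the CRE cores (CGTCA where the core is on the opposite strand), the CArG box of Egr2 and the EGR site of Nr4a1.
Egr2 (chr10:67537619-67537868, plus strand, 250 bases): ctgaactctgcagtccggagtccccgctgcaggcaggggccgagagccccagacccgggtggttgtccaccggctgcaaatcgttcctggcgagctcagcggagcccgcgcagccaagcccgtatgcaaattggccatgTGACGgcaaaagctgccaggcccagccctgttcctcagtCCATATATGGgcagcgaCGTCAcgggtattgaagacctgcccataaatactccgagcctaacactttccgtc
Nr4a1 (chr15:101266596-101266845, plus strand, 250 bases): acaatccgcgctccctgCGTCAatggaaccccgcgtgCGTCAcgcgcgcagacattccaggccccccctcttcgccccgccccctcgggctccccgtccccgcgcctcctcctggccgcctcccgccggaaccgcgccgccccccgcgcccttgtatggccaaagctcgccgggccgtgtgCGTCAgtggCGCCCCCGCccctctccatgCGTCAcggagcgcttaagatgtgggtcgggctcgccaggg
Nr4a2 (chr2:57124004-57124253, minus strand, 250 bases): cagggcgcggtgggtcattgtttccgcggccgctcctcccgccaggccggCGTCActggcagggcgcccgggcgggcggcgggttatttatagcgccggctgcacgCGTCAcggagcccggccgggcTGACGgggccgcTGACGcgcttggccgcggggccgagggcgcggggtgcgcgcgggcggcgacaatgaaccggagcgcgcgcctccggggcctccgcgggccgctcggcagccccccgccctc
Nr4a3 (chr4:48045055-48045152, plus strand, 98 bases): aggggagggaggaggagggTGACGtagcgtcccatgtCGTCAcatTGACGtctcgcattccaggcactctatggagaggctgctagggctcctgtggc

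Egr2 held 2 CRE cores, at -111 and -55 from the start, with a CArG box between them at -72. Nr4a1 held 4 CRE cores, at -233, -213, -69 and -40, and an EGR site at -60. Nr4a2 held 4 CRE cores, at -200, -144, -123 and -111. Nr4a3 held 3 CRE cores within the 98 bases searched, at -231, -213 and -205 from a RefSeq start that lies 152 bases inside the GENCODE gene. The 243 bases searched for Nab2 held none of the 6 motifs, and Nab1 had 19 bases outside its exons and none of the motifs there. Those of Nab2 (chr10:127666711-127666953) lie inside the annotated gene, which reaches 127668568 on the minus strand, so sequence before its outermost start was not searched. No full CRE, NBRE or AP-1 site was found in the parts searched. Over all 32851 RefSeq promoters, 17.8% held at least 1 CRE core, 3.9% at least 2 and 0.137% at least 4. A CArG box was present in 1.47% of them and an EGR site in 3.06%. These shares are for full windows of 250 bases and are not matched to the shorter parts searched for Nr4a3, Nab1 and Nab2. These matches describe the letters of the windows, and binding was not measured.

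**Figure D1:**
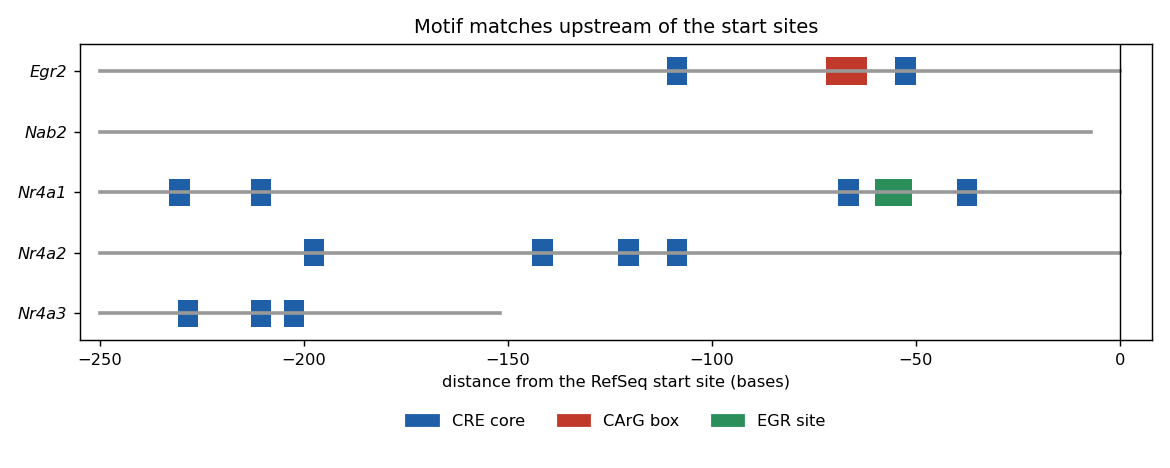
Motif matches in the windows searched upstream of 5 start sites, by distance in bases from the RefSeq start (0). Grey lines are the windows and coloured boxes the matches, with 4 CRE cores each in Nr4a1 and Nr4a2, 3 in Nr4a3, 2 and a CArG box in Egr2, and none in Nab2.

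Levels are given as CPM (the counts of a gene per fixed library total), after TMM scaling over all 48 libraries. Levels of different genes are compared only per kilobase of the longest annotated protein-coding transcript of each gene. The libraries held 48447318 to 77080730 counts each. Over the 12 non-stretched libraries of a stage, Nab2 had the highest level of the 8 genes in both stages, 57.9 CPM per kilobase in myoblasts and 50.7 in differentiated cells. Nab1 followed in myoblasts with 29.2, and Egr1 in differentiated cells with 47.2. Nr4a3 had the lowest level, 0.0842 in myoblasts and 0.308 in differentiated cells.

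The stages differed in which NR4A gene was most abundant. In non-stretched myoblasts Nr4a2 led the receptors with 11.3 CPM per kilobase against 4.3 for Nr4a1, and in non-stretched differentiated cells Nr4a1 led with 8.32 against 3.07 for Nr4a2. Among the EGR genes, Egr1 had 114 CPM (SD 8.04, n = 12) in non-stretched myoblasts and 212 CPM (SD 12.2, n = 12) in non-stretched differentiated cells. Egr3 had 16.5 CPM (SD 1.28) and 63.2 CPM (SD 3.48), and the 24 libraries did not overlap between stages. The stages were grown for different times in different media, so stage and culture cannot be told apart. Egr4, the remaining gene of the family, had 0 to 5 counts per library and was not tested.

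The labelled stages were checked against their markers. Myog, which drives terminal myogenic differentiation, had 0.389 to 3.22 CPM in myoblasts and 723 to 962 CPM in differentiated cells, and embryonic myosin Myh3 had 0.668 to 3.44 CPM and 3882 to 4979 CPM. None of the 6 differentiation markers overlapped between the stages. Of the 5 markers of undifferentiated or proliferating cells, all but Pax7 had their higher median in myoblasts. Pax7 went against the labels, with a median of 27.1 CPM (22.2 to 29.8) before differentiation and 32.1 CPM (26.5 to 37.4) after it. Myf5 overlapped slightly, with 33.4 to 66.4 CPM before and 16.3 to 34.3 CPM after. Ptprc, Pecam1 and Adipoq, which mark blood, endothelial and fat cells, had at most 9 counts in any library. Sp7, which marks bone cells, had 7 to 33 counts in myoblasts and 10 to 32 in differentiated cells, at most 0.561 and 0.586 CPM. In differentiated cells at 1 h, stretched replicate 4 stood apart: it was the only library with its title code, B17, and no non-stretched library carries that code. Its Mki67, a proliferation marker, was 229 CPM against 96.3 to 145 CPM in the other 7 libraries of that time. Its Ccnd1 (cyclin D1) was 87.2 CPM against 55.4 to 67.2, and its Id3, an inhibitor of myogenic factors, was 33.98 against 12.7 to 19.3. Of the 5 markers of undifferentiated or proliferating cells these 3 were above the other 7 libraries, Myf5 was below them and Pax7 within their range, and their summed level was 398 CPM against 213 to 272. Of the 6 differentiation markers Myog (932 CPM) and 3 others were within the range, while Mef2c (236 CPM against 247 to 291) and Ckm (295 CPM against 308 to 373) were below it, and the sum was 10353 CPM against 9511 to 11289. The part of these differences in the results was not tested. Most tests at that time are also given without the library.

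**Figure D2:**
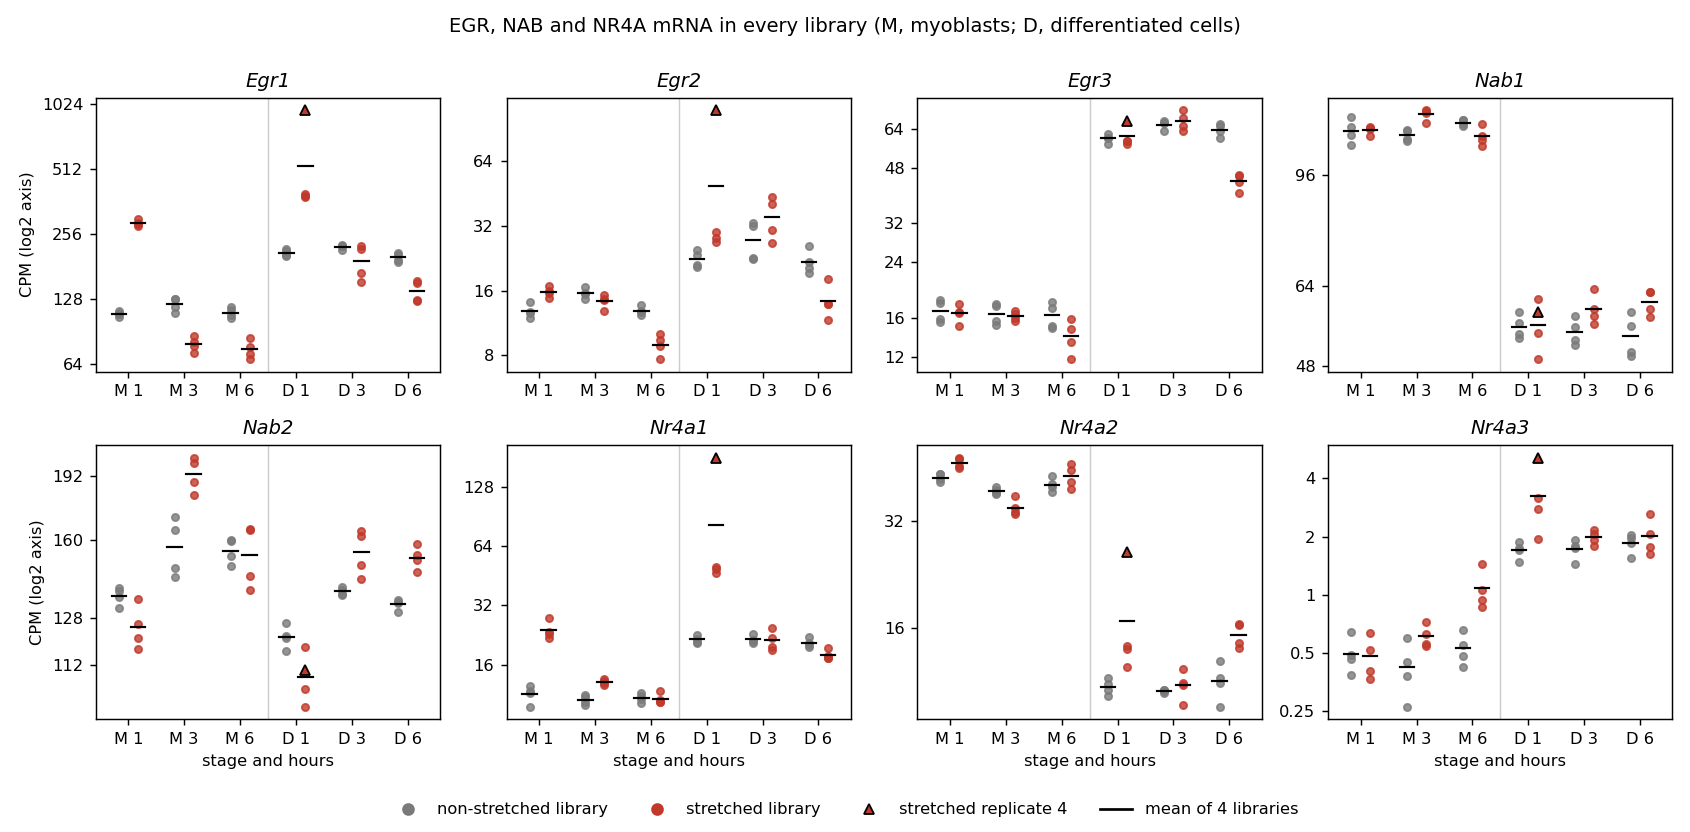
CPM of each gene (log2 axis, a separate scale per gene) in all 48 libraries by stage (M, myoblasts; D, differentiated cells) and hours. Points are libraries and black lines are means of 4. Stretched Egr1 lies between 279 and 301 CPM in myoblasts at 1 h, above all 4 non-stretched libraries, and below them at 3 h and 6 h.

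In stretched myoblasts at 1 h, Egr1 and Nr4a1 were upregulated and the other 6 genes did not pass the test. A gene was counted as changed when edgeR's quasi-likelihood test gave a Benjamini-Hochberg adjusted p below 0.05 and the absolute log2 fold change was at least 0.58. Thus 2 of 8 members passed, both higher, where 1.25% of the 14938 genes tested passed. By the adjusted p alone, whatever the size, 4 of 8 passed against 5.92% of genes. In 4 of the 8 (Egr1, Egr2, Nr4a1 and Nr4a2) all stretched libraries lay above all non-stretched ones, which was the case for 5.32% of genes tested, and in 0 of 8 all lay below (8.03% of genes).

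Egr1 had 113, 111, 109 and 106 CPM in the non-stretched myoblasts and 286, 289, 279 and 301 CPM in the stretched ones at 1 h. The groups were far apart and each was tight. The fold was 2.63, a log2 fold change of 1.40 (SE 0.0346, edgeR adjusted p = 2.09e-09). Within the codes B27 and B31 the log2 difference was 1.36 and 1.44. In bulk samples like these, a change in RNA per cell and a change in the share of cells that express a gene cannot be told apart.

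By 3 h the direction had turned. Egr1 had 129, 129, 111 and 118 CPM in non-stretched myoblasts and 86.1, 80.8, 77.4 and 72.1 CPM in stretched ones, with no overlap. It was downregulated, with a log2 fold change of -0.63 (SE 0.0519, edgeR adjusted p = 4.75e-06). At 3 h Egr1 was the only 1 of the 8 genes to pass, where 1.71% of genes did.

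At 6 h stretched myoblasts had 76.5, 84.6, 67.5 and 71.7 CPM of Egr1 against 117, 114, 108 and 104 CPM. All stretched libraries were again below all non-stretched ones. The log2 fold change of -0.54 (SE 0.0613, edgeR adjusted p = 1.84e-04) was under the size limit, and without stretched replicate 8 it was -0.60 and passed.

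With differentiation, Egr1 at 1 h had 219, 213, 205 and 203 CPM without stretch. With stretch, replicates 7, 8 and 9 had 391, 386 and 382 CPM and replicate 4 had 961 CPM. All 4 stretched libraries were above the non-stretched ones, with replicate 4 at 2.49 times the mean of the other 3. Over all 8 libraries the log2 fold change was 1.33 (SE 0.28, edgeR adjusted p = 0.0761) and did not pass. Without replicate 4 it was 0.88 (SE 0.0384, edgeR adjusted p = 7.14e-06) and passed.

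The later differentiated libraries fell into different patterns at 3 h and 6 h. At 3 h non-stretched cells had 216, 229, 226 and 225 CPM of Egr1, and stretched replicates 7 and 8 had 169 and 154 CPM while replicates 9 and 10 had 227 and 218 CPM. The split followed the title codes: the log2 difference was -0.46 within B25 and -0.02 within B28, and over all libraries -0.22 (edgeR adjusted p = 0.161). At 6 h the libraries of both codes lay on the same side, with 127, 153, 126 and 155 CPM in stretched cells against 210, 205, 195 and 190 CPM. The log2 fold change at 6 h was -0.51 (SE 0.0712, edgeR adjusted p = 1.27e-03), under the size limit.

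Ordered by their mean, the 12 groups ran from 529.96 CPM of Egr1 (SD 287, n = 4) in differentiated cells stretched for 1 h and 289 CPM (SD 8.96) in myoblasts stretched for 1 h down to 79.1 CPM (SD 5.86) and 75.1 CPM (SD 7.34) in myoblasts stretched for 3 h and 6 h. Neighbours differed by less than the larger of their SDs at 4 places in that order: the top pair, the bottom pair, non-stretched myoblasts at 6 h and 1 h, and differentiated cells non-stretched at 6 h and stretched at 3 h. Without replicate 4 the top group had 386 CPM (SD 4.48, n = 3), and the top pair then differed by more than either SD.

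Egr2, the close relative of Egr1, moved less at 1 h and was lower at 6 h in both stages. In myoblasts at 1 h it had 11.9, 12.5, 12.8 and 14.1 CPM without and 15.7, 16.01, 14.8 and 16.7 CPM with stretch. The groups did not overlap, but the log2 fold change of 0.30 (SE 0.06, edgeR adjusted p = 0.0134) was under the size limit. At 3 h its log2 fold change was -0.13 (edgeR adjusted p = 0.0955), against non-stretched cells with a mean of 15.6 CPM, where those of 1 h had 12.8 CPM.

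At 6 h stretched myoblasts had 8.8, 10.03, 7.67 and 9.38 CPM of Egr2 against 13.7, 12.7, 12.3 and 12.8 CPM, again without overlap. The log2 fold change was -0.51 (SE 0.0726, edgeR adjusted p = 6.61e-04), under the size limit. In differentiated cells at 6 h the stretched libraries had 11.7, 13.9, 13.9 and 18.1 CPM and the non-stretched ones 19.4, 20.3, 25.9 and 21.7 CPM. Egr2 was downregulated there, with a log2 fold change of -0.61 (SE 0.127, edgeR adjusted p = 7.62e-03), the only 1 of the 8 genes to pass at 6 h in differentiated cells, where 2.04% of genes did. The value sits at the size limit: it was -0.51 without non-stretched replicate 9 and -0.52 without stretched replicate 7, and did not pass in either case. With all 24 libraries of the stage in 1 model it was -0.61 and lost the call (edgeR adjusted p = 0.211).

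At 1 h in differentiated cells Egr2 had 21.1, 20.5, 24.7 and 23.5 CPM without stretch, 28.2, 26.9 and 30.1 CPM in stretched replicates 7 to 9, and 111 CPM in replicate 4. Replicate 4 alone was 3.89 times the mean of the other 3. The log2 fold change of 1.12 (SE 0.428, edgeR adjusted p = 0.422) became 0.34 (SE 0.0726, edgeR adjusted p = 0.0742) without it. At 3 h it was 0.35 (edgeR adjusted p = 0.17), with 0.33 within B25 and 0.37 within B28.

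Egr3 showed no early difference that passed. Its log2 fold change at 1 h was -0.03 in myoblasts (95% interval -0.18 to 0.12) and 0.02 in differentiated cells (-0.10 to 0.15; -0.04 without replicate 4), and at 3 h it was -0.04 and 0.04. Later, in differentiated cells at 6 h, the 4 non-stretched libraries had 63.003, 65.5, 66.5 and 59.9 CPM and the stretched ones 39.96, 45.8, 43.3 and 45.5 CPM. These groups did not overlap, and the log2 fold change was -0.55 (SE 0.0493, edgeR adjusted p = 1.91e-04), under the size limit. In myoblasts at 6 h it was -0.21 (SE 0.0902, edgeR adjusted p = 0.115).

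**Figure D3:**
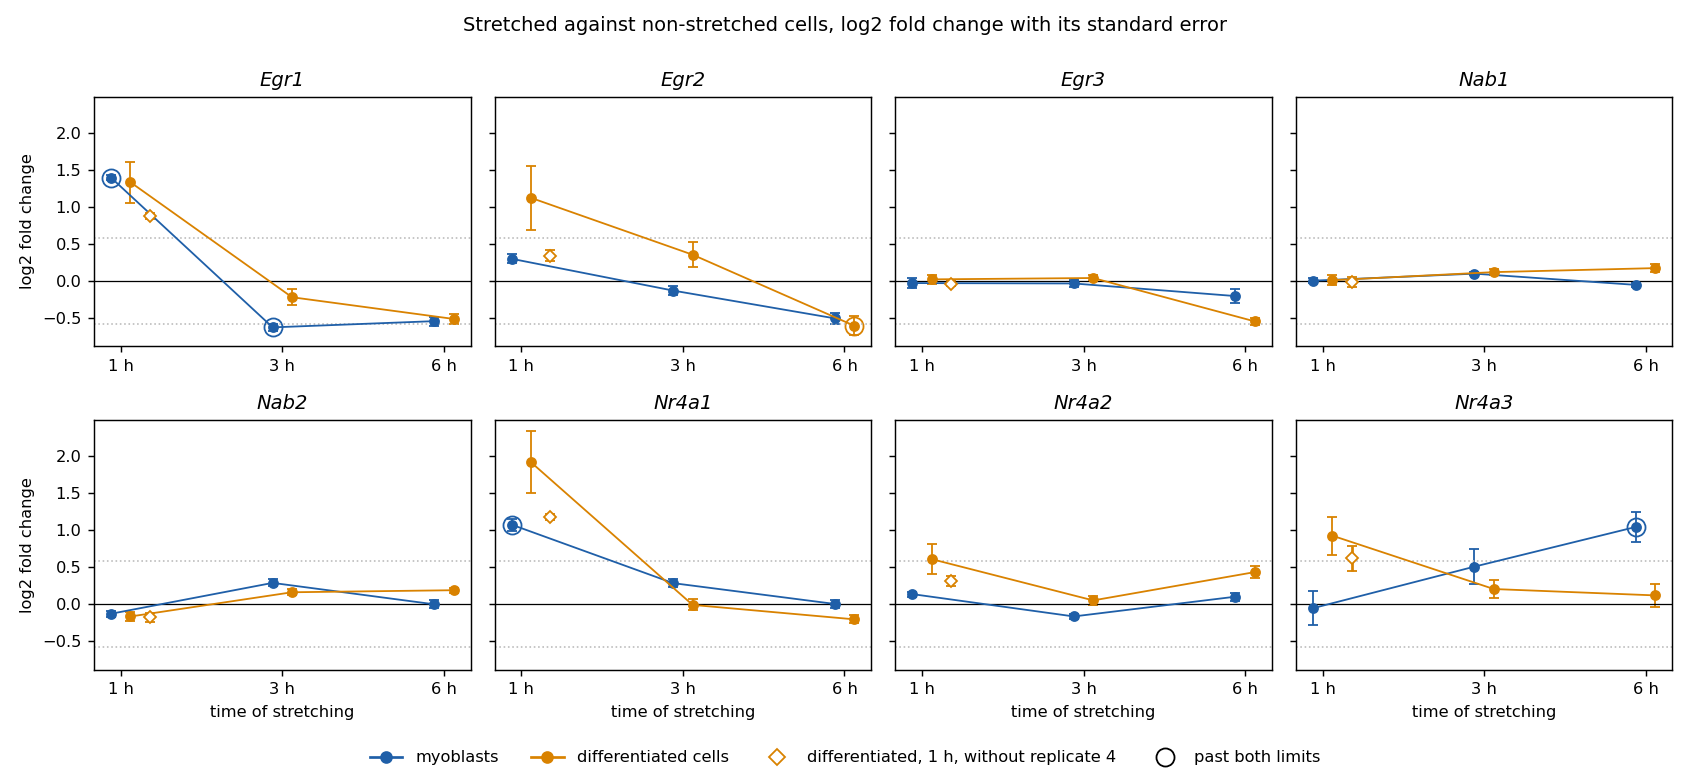
Log2 fold change of stretched against non-stretched cells (points, with bars of 1 SE) for each gene at 1 h, 3 h and 6 h in myoblasts and differentiated cells, dotted lines at the size limit of 0.58. Egr1 goes from 1.40 at 1 h to -0.63 at 3 h in myoblasts, and the open diamonds show the differentiated 1 h values without replicate 4.

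Neither corepressor gene reached the size limit in any of the 6 stretch comparisons. Nab2 was on the other side of the control from Egr1 at 1 h and 3 h: in myoblasts at 1 h it had 138, 139, 132 and 136 CPM without and 135, 126, 117 and 121 CPM with stretch. That difference overlapped and did not pass, with a log2 fold change of -0.13 (SE 0.0438, edgeR adjusted p = 0.127). At 3 h Nab2 had 171, 165, 144 and 148 CPM without and 182, 199, 189 and 202 CPM with stretch, with no overlap. The log2 fold change at 3 h was 0.29 (SE 0.0487, edgeR adjusted p = 6.53e-04).

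In differentiated cells the Nab2 log2 fold change was -0.17 at 1 h (edgeR adjusted p = 0.313, and -0.18 with 0.338 without replicate 4), 0.16 at 3 h (SE 0.0418, edgeR adjusted p = 0.0194) and 0.19 at 6 h (SE 0.032, edgeR adjusted p = 3.02e-03). At 6 h stretched libraries had 158, 153, 151 and 146 CPM against 135, 134, 134 and 130 CPM, and the groups did not overlap. In myoblasts at 6 h the groups overlapped, with a log2 fold change of 0.00 (95% interval -0.12 to 0.12). Nab2 overlaps Nemp1 and Gm16229 on the opposite strand by 1668 and 1646 bases and Stat6 by 40 bases. The methods name a stranded library preparation, but whether strand was used in the counting is not given in the sources used here.

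Nab1 varied least. Its log2 fold changes in the 6 comparisons ran from -0.05 to 0.17, with adjusted p values under 0.05 in myoblasts at 3 h (0.10, SE 0.0242, edgeR adjusted p = 7.85e-03) and in differentiated cells at 6 h (0.17, SE 0.055, edgeR adjusted p = 0.0456). Of its 31-base words, 6.37% also occur in another annotated gene, against at most 0.523% for the other 7 genes, so part of its counts could have been shared out differently.

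Nr4a1, which encodes the receptor also called Nur77, was upregulated with Egr1 at 1 h in myoblasts. It had 11.5, 11.8, 9.81 and 12.5 CPM without and 22.9, 21.998, 27.5 and 23.4 CPM with stretch. The groups were well separated, with a fold of 2.11 and a log2 fold change of 1.08 (SE 0.0821, edgeR adjusted p = 4.28e-05). At 3 h it had 10.01, 10.3, 11.03 and 11.2 CPM without and 12.6, 12.9, 13.2 and 13.6 CPM with stretch, still separate, with a log2 fold change of 0.29 (SE 0.0515, edgeR adjusted p = 1.04e-03). At 6 h the groups overlapped and the log2 fold change was 0.00 (95% interval -0.12 to 0.13). At none of the 3 times did all stretched myoblast libraries lie below all non-stretched ones for Nr4a1, whereas they did for Egr1 at 3 h and 6 h.

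Differentiated cells at 1 h had 21.7, 20.8, 20.95 and 22.6 CPM of Nr4a1 without stretch, 50.01, 49.3 and 46.8 CPM in stretched replicates 7 to 9, and 180 CPM in replicate 4. All stretched libraries lay above the non-stretched ones. Its log2 fold change was 1.92 (SE 0.419, edgeR adjusted p = 0.0867) with replicate 4 and 1.18 (SE 0.0437, edgeR adjusted p = 2.12e-06) without it. It was -0.01 at 3 h (95% interval -0.17 to 0.15), and at 6 h -0.20 (SE 0.0548, edgeR adjusted p = 0.0232) with 17.7, 19.6, 17.3 and 17.4 CPM against 19.7, 20.7, 22.2 and 20.1 CPM.

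Nr4a2 had differences of both signs, none past the size limit in myoblasts. There its log2 fold change was 0.14 at 1 h (SE 0.0328, edgeR adjusted p = 0.0318), -0.17 at 3 h (SE 0.0382, edgeR adjusted p = 5.25e-03) and 0.10 at 6 h (edgeR adjusted p = 0.18). At 6 h in differentiated cells the stretched libraries had 16.4, 14.5, 16.2 and 14.1 CPM and the non-stretched ones 11.6, 11.2, 12.9 and 9.6 CPM. They did not overlap, and the log2 fold change was 0.43 (SE 0.0862, edgeR adjusted p = 5.95e-03), under the size limit. At 1 h it was 0.61 (SE 0.206, edgeR adjusted p = 0.321) with replicate 4, which had 26.1 CPM against 12.4 to 14.3 CPM in the other 3, and 0.31 (SE 0.0663, edgeR adjusted p = 0.0743) without it.

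Nr4a3 was upregulated late in myoblasts, at low counts. At 6 h it had 42, 24, 36 and 29 counts without and 68, 55, 93 and 52 counts with stretch, or 0.423 to 0.653 CPM against 0.868 to 1.44 CPM. The groups did not overlap, and the log2 fold change was 1.05 (SE 0.204, edgeR adjusted p = 3.56e-03), with 0.91 within B27 and 1.09 within B31. It was the only 1 of the 8 to pass at 6 h in myoblasts, where 2.17% of genes did. At 1 h and 3 h the log2 fold change was -0.05 (SE 0.23) and 0.51 (SE 0.234, edgeR adjusted p = 0.118).

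In differentiated cells Nr4a3 had 95 to 118 counts in the non-stretched libraries of 1 h, 171, 192 and 118 counts in stretched replicates 7 to 9 and 270 counts in replicate 4. Its log2 fold change was 0.93 (SE 0.256, edgeR adjusted p = 0.189), and 0.62 (SE 0.17, edgeR adjusted p = 0.178) without replicate 4. It was 0.21 at 3 h and 0.12 at 6 h, with intervals of -0.05 to 0.46 and -0.23 to 0.47.

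Counted over the 8 genes in differentiated cells, 0 passed at 1 h by edgeR with all libraries, where 0.27% of genes passed. Unadjusted p values were under 0.05 for 6 of them, and DESeq2 counted 3, namely Egr1, Nr4a1 and Nr4a3. No share of all genes is given for these counts, so neither is read as more than all genes show. Without replicate 4, Egr1 and Nr4a1 passed, 2 of 8 against 0.356% of genes tested. All 4 stretched libraries lay above the non-stretched ones for 5 of the 8 genes, against 2.46% of all genes. Without replicate 4 the remaining 3 lay above for the same 5 genes (3.53% of all genes) and below for 0 (5.3% of all genes). At 3 h 0 of 8 passed by edgeR, against 1.63% of all genes by edgeR, and 0 by DESeq2. An unadjusted p was under 0.05 for 2.

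At the later times differences of small size were common over all genes, which bears on the members below the size limit. By the adjusted p alone 5 of 8 passed in myoblasts at 3 h and 3 of 8 at 6 h, against 31.9% and 27.2% of genes tested. In differentiated cells the counts were 0 of 8 at 1 h, 1 of 8 at 3 h and 7 of 8 at 6 h, against 0.663%, 22.2% and 22.3% of genes, and at 1 h without replicate 4 it was 2 of 8 against 1.12%. In stretched myoblasts all libraries lay above the non-stretched ones for 3 members at 3 h and 1 at 6 h (17.1% and 12.4% of genes) and below them for 2 at each time (13.7% and 16.3% of genes). In differentiated cells they lay above for 1 member at 3 h and 2 at 6 h (12.5% and 14.3% of genes) and below for 0 at 1 h, 0 at 3 h and 4 at 6 h (3.91%, 13.5% and 12.2% of genes).

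**Figure D4:**
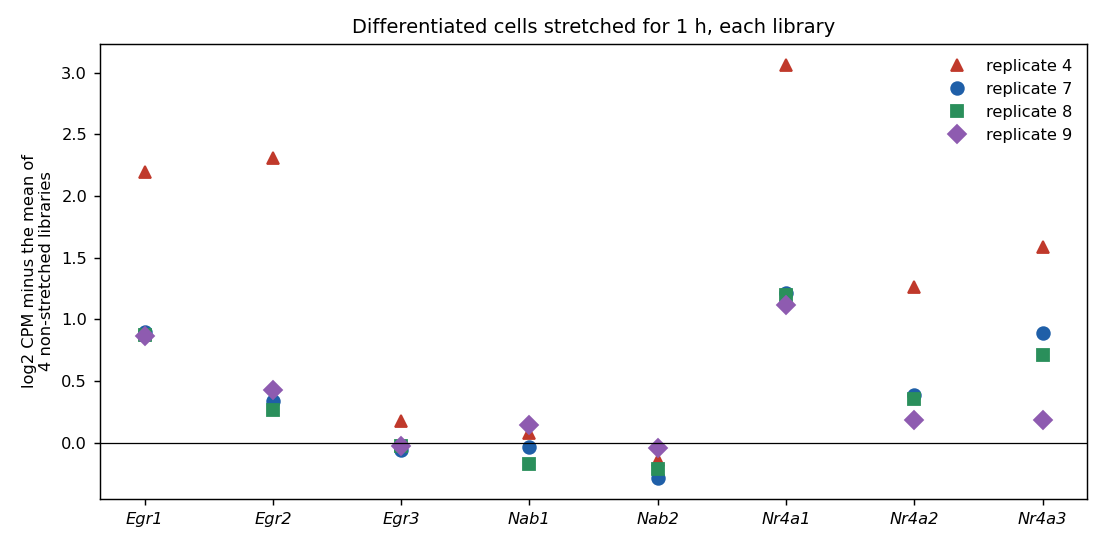
Log2 CPM of every stretched library of differentiated cells at 1 h, minus the mean of the 4 non-stretched libraries of that time, for each gene. Replicate 4 (triangles) lies above the other 3 for Egr1, Egr2, Egr3, Nr4a1, Nr4a2 and Nr4a3. Replicates 7, 8 and 9 all lie above 0 for these genes except Egr3.

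The change of the stretch effect with time was tested itself, in 1 model of 24 libraries per stage. The 3 h and 6 h differences share the 1 h libraries. In myoblasts the effect on Egr1 was lower by 2.03 on the log2 scale at 3 h than at 1 h (SE 0.0808, edgeR adjusted p = 1.47e-14) and by 1.94 at 6 h (SE 0.0808, edgeR adjusted p = 4.12e-14). The effect on Nr4a1 differed from that at 1 h by -0.80 at 3 h (SE 0.0973, edgeR adjusted p = 5.15e-06) and by -1.07 at 6 h (SE 0.0973, edgeR adjusted p = 3.75e-08). These were the 2 of 8 to pass at 3 h, where 1.42% of genes passed.

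At 6 h in myoblasts 4 of 8 passed against 3.17% of genes, the other two being Egr2 and Nr4a3. The Egr2 effect was lower than at 1 h, with a difference of -0.81 (SE 0.096, edgeR adjusted p = 1.99e-06), and the Nr4a3 effect was higher, with 1.10 (SE 0.317, edgeR adjusted p = 0.0144). For Nab2 the 3 h effect exceeded the 1 h effect by 0.41 (SE 0.0799, edgeR adjusted p = 1.09e-03), under the size limit.

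In differentiated cells the Egr1 and Nr4a1 effects were lower at 3 h than at 1 h, with differences of -1.56 (SE 0.287, edgeR adjusted p = 1.80e-03) and -1.93 (SE 0.404, edgeR adjusted p = 5.11e-03), 2 of 8 against 0.848% of genes. At 6 h Egr1, Egr2 and Nr4a1 passed, with -1.85, -1.73 and -2.13 (edgeR adjusted p = 2.55e-04, 0.0166 and 1.54e-03), 3 of 8 against 2.5% of genes. Without replicate 4 these values were smaller and the same 2 and 3 genes passed, against 1.09% and 2.74% of genes. Egr1 was then at -1.10 at 3 h and -1.40 at 6 h, Nr4a1 at -1.19 and -1.38, and Egr2 at -0.95 at 6 h.

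The non-stretched groups of 3 h and 6 h were compared with those of 1 h. Of the 8 genes, 0 passed by edgeR and by DESeq2 in each of the 4 comparisons of 3 h or 6 h with 1 h, with 4, 1, 2 and 1 at an unadjusted p under 0.05. The shares of all genes that passed by edgeR were 0.0446% and 0.159% in myoblasts and 0% in both comparisons of differentiated cells. The log2 differences of the 8 genes ran from -0.20 to 0.30. Egr2 had 12.8 CPM (SD 0.939) at 1 h and 15.6 CPM (SD 0.827) at 3 h in non-stretched myoblasts. In non-stretched differentiated cells it had 22.4 CPM (SD 1.98) and 27.6 CPM (SD 5.76). For comparison, its stretch effect in myoblasts at 1 h was a log2 fold change of 0.30.

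The stretch effect was then compared between the stages at matched times, with both tables in 1 model of 16 libraries. At 1 h 0 of 8 passed by edgeR and by DESeq2, where 0% of genes passed by edgeR, and 2 of the 8 had an unadjusted p under 0.05. The difference, differentiated minus myoblast, was -0.06 for Egr1 (95% interval -0.71 to 0.58) and 0.84 for Nr4a1 (-0.16 to 1.84), intervals too wide to exclude a sizeable difference in either gene. Without replicate 4 the Egr1 effect was smaller in differentiated cells, with a difference of -0.52 (SE 0.0499, edgeR adjusted p = 1.03e-04), under the size limit, and the Nr4a1 difference was 0.10 (SE 0.102). Then, too, 0 of 8 passed, against 0.0182% of genes.

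At 3 h 0 of 8 passed by edgeR and by DESeq2, where 0.252% of genes passed by edgeR, and 4 had an unadjusted p under 0.05. The Egr1 effect was 0.40 higher in differentiated cells (95% interval 0.13 to 0.68, edgeR adjusted p = 0.147). At 6 h Nr4a3 passed, 1 of 8 against 0.64% of genes, with a difference of -0.93 (SE 0.263, edgeR adjusted p = 0.0483). That value lies at the edge of the threshold. With the title code as a covariate its edgeR adjusted p was 0.0557, and with a replicate block 0.0527. For Egr1 and Egr2 at 6 h the differences were 0.02 (95% interval -0.20 to 0.24) and -0.11 (-0.44 to 0.23).

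Other immediate early genes were followed in a list of 25, all of which were tested. At 1 h, 7 of them rose in stretched myoblasts and 1 fell (Arc, -0.60, named after its value was seen), where 1.25% of all genes passed. The median log2 fold change of the 25 was 0.24 against 0.00 for all genes. The 4 with the largest change were Fos (2.16, edgeR adjusted p = 1.51e-06) and Fosb (2.09, edgeR adjusted p = 1.47e-05), subunits of AP-1, Dusp1 (0.98, edgeR adjusted p = 1.37e-07), a phosphatase of MAP kinases, and Cyr61 (0.81, edgeR adjusted p = 1.37e-07), a matrix-associated signalling protein. Egr1 and Nr4a1 thus lay between Fosb and Dusp1 in size.

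At 3 h in myoblasts 1 of the 25 was upregulated, Fosb (0.71), and 1 downregulated, the antiproliferative gene Btg2 (-0.58), and at 6 h 0 passed by edgeR, with 14 at an unadjusted and 11 at an adjusted p under 0.05. Of all genes, 1.71% passed at 3 h and 2.17% at 6 h, and 27.2% had an adjusted p under 0.05 at 6 h. In differentiated cells 4 were upregulated at 1 h with all libraries, Fosb (4.01), Fos (2.76), Cyr61 (1.83) and Dusp1 (0.96), and 8 without replicate 4, where Fosb had 3.38 and Fos 2.04. The shares of all genes that passed were 0.27% with that library and 0.356% without it. The median of the 25 was 0.75 with and 0.36 without that library. At 3 h 5 were upregulated, Ctgf (1.01), a matrix-associated growth factor, Fosl1 (0.96), Fosb (0.77), the phosphatase Dusp5 (0.73) and Atf3 (0.62, named after its value was seen), at a time when 0 of the 8 EGR, NAB and NR4A genes passed. At 6 h Fosl1 alone remained past both limits (0.61), the median being -0.11. Of all genes, 1.63% passed at 3 h and 2.04% at 6 h.

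**Figure D5:**
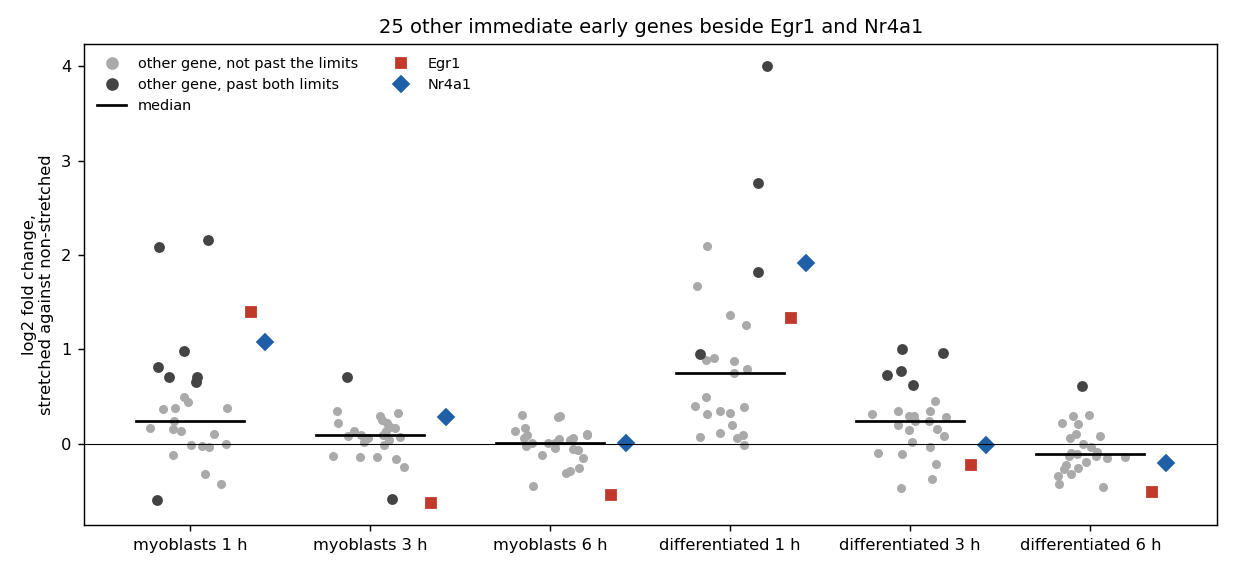
Log2 fold change of stretched against non-stretched cells for 25 other immediate early genes (circles, dark where both limits were passed, line at the median) with Egr1 and Nr4a1 beside them, for each stage and time. The median is 0.24 in myoblasts and 0.75 in differentiated cells at 1 h, and Egr1 lies below it at 3 h and 6 h in both stages.

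Of 23 genes for the ERK, SRF, CREB and MEF2 proteins that act on these promoters, 0 passed both limits in any of the 6 stretch comparisons by edgeR. Of all genes, 0.27% to 2.17% passed there. Among the 23, 2 to 11 had an unadjusted and 0 to 9 an adjusted p under 0.05, the latter against 0.663% to 31.9% of all genes. Log2 fold changes of the 23 ran from -0.43 to 0.30. At 1 h in differentiated cells without replicate 4 again 0 passed (0.356% of all genes), with 2 at an unadjusted p under 0.05. Of 5 tested genes for NR4A binding partners and competitors of EGR at GC boxes, 0 passed in any comparison by edgeR, with 0 to 3 at an unadjusted p under 0.05, and 0 without replicate 4, with 1 at an unadjusted p under 0.05. At the shares given for all genes, a list of 23 or 5 genes can easily hold none that passed.

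Of the muscle genes known as NR4A targets, 9 to 13 were tested per comparison. In myoblasts 1 passed at 1 h, 1 at 3 h and 2 at 6 h, and in differentiated cells 0, 1 and 1. The shares of all genes that passed were 1.25%, 1.71% and 2.17% in myoblasts and 0.27%, 1.63% and 2.04% in differentiated cells. Lpin1, a phosphatidate phosphatase and coregulator of fat use, was downregulated at 1 h (-0.63, edgeR adjusted p = 3.24e-03) and upregulated at 6 h (0.60, edgeR adjusted p = 2.71e-04). The other calls were of genes below 1 CPM: the glucose transporter gene Slc2a4 at 3 h (-0.74) and Prkag3, a subunit of AMP-activated kinase, at 6 h (-0.62) in myoblasts, and Ucp3, a mitochondrial carrier, at 3 h (-0.99) and 6 h (-0.98) in differentiated cells. At 1 h in differentiated cells 0 of 13 passed by edgeR, with 3 at an unadjusted p under 0.05, and 0 without replicate 4.

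The genes whose log2 CPM followed Egr1 or Nr4a1 most closely are given as a description over the 24 libraries of a stage, which share the same groups and title codes. In myoblasts the 5 genes most like Egr1 were Ptger4 (Pearson r = 0.936), Dusp1, Arrdc3, Areg and Lif (0.909), and those most like Nr4a1 were Fosb (0.985), Sgk1, Ppp1r15a, Ptgs2 and Dusp5 (0.917), out of 11401 genes whose mean count reached 100. Egr1 and Nr4a1 correlated at 0.803. In differentiated cells Egr1 was closest to Nr4a1 (0.956), then Fos, Fosl2, Trib1 and Sgk1 (0.939), and Nr4a1 to Csrnp1 (0.977), Sgk1, Fos, Trib1 and Egr1. Without replicate 4 the closest to Egr1 were Fosl2 (0.937), Nr4a1 (0.912), Fos, Ptger4 and Sgk1. Those closest to Nr4a1 were then Sgk1 (0.9745), Fosb, Plk2, Fos and Csrnp1 (0.935), with Egr1 at rank 6. Nab2 correlated negatively with Egr1 in both stages, at -0.69 in myoblasts and -0.73 in differentiated cells.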

How the data were processed

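RNA-seq was analysed from 48 libraries of C2C12 myoblasts and differentiated cells, 4 in each of 12 groups. According to the methods and the submitters' processing notes, the authors aligned paired reads to mm10 with STAR and quantified genes with Salmon, and deposited 1 table of whole-number counts per stage. From these deposited counts, stretched and non-stretched libraries of each stage and time were compared with edgeR 4.0.16 in R 4.3.3 (filterByExpr, TMM, quasi-likelihood test, Benjamini-Hochberg adjustment over all genes tested). A change needed an adjusted p below 0.05 and an absolute log2 fold change of at least 0.58. Shares of all genes are from edgeR, and none is given for DESeq2 or for counts by unadjusted p. Standard errors are the log2 fold change divided by the square root of F. Changes of the effect with time or stage were tested as interactions, and the 2 tables were joined by symbol for the stage comparison. Log2 CPM for likeness used a prior count of 1. DESeq2 1.42.0, another normalization, other filters, the title code as a covariate, a replicate block and leaving out each library were alternatives.

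The members and gene lists were chosen with earlier results of these data known. The text names the 8 members and Egr4, up to 4 genes per list and comparison by size of change among those that passed, and the 5 genes most like Egr1 and Nr4a1. Gene positions and lengths come from GENCODE annotation of mm10, and promoter sequences from RefSeq. The table's 48447318 to 77080730 counts per library set the counting precision, which matters most for Nr4a3. The title of 1 myoblast library differs from its column name by 1 digit in the title code and was matched as the remaining title of its group. All columns were used. The result of a list of EGR1 target genes is not reported here.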

Additional observations from a re-analysis of the deposited data

Results flagged for a closer look

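In differentiated cells stretched for 1 h, replicate 4 was flagged against the other 3 libraries for 5 genes: Egr1 (961 CPM), Egr2 (111 CPM), Egr3 (67.7 CPM), Nr4a1 (180 CPM) and Nr4a2 (26.1 CPM). For Egr3 the distance was small, 1.16 times the mean of the other 3, which lay close together (58.3 CPM, SD 0.868). At 6 h in stretched differentiated cells, replicate 8 lay apart for Nr4a1 (19.6 CPM). These were 6 of 96 groups of 4 libraries tested with Dixon's criterion, where chance flags about 1 in 20 groups, and the 5 of replicate 4 are of the same library. Markers of proliferation were also high in that library, and their part was not tested.

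The stretch effect differed between times, by a test of the difference itself. In myoblasts the difference from 1 h was -2.03 for Egr1 and -0.80 for Nr4a1 at 3 h, and -1.94 for Egr1, -0.81 for Egr2, -1.07 for Nr4a1 and 1.10 for Nr4a3 at 6 h. In differentiated cells it was -1.56 for Egr1 and -1.93 for Nr4a1 at 3 h, and -1.85 for Egr1, -1.73 for Egr2 and -2.13 for Nr4a1 at 6 h. Between stages at 6 h the Nr4a3 effect differed by -0.93.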

How the results depend on the processing

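The calls of Egr1 and Nr4a1 in myoblasts at 1 h and of Egr1 at 3 h passed under each alternative run. With no size limit 4, 5 and 3 members passed in myoblasts at 1 h, 3 h and 6 h, 1 and 7 in differentiated cells at 3 h and 6 h, 5 for myoblasts at 3 h against 1 h, 5 for differentiated cells at 6 h against 1 h, and 1 for non-stretched myoblasts at 3 h. The shares of all genes with no size limit are given above for the stretch comparisons only. For the comparisons with 1 h none is given, so those counts are not read against all genes. For differentiated cells at 1 h, where 0 passed, 3 did with DESeq2, 2 with no filter on low counts, 2 with the title code (taken as the experiment) as a covariate, 2 with the replicate block (Egr1 0.86, Nr4a1 1.203) and 4 with all 24 libraries in 1 model. The share of all genes that passed in each of these runs is not given. A higher count of members is therefore not read as a stronger result. Replicate 4 has no partner of its title code or number, so the covariate and the block leave it without weight. With all 24 libraries 0 passed in differentiated cells at 6 h. The stage difference of Nr4a3 at 6 h was lost, leaving 0, with no filter, with the covariate and with the replicate block.

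Leaving out 1 library gave 0 to 2 members in differentiated cells at 1 h (2 without replicate 4, 1, Nr4a3, without replicate 9), 0 to 1 at 6 h, 1 to 2 in myoblasts at 3 h (Nr4a3 at 0.73 without non-stretched replicate 8) and 1 to 2 at 6 h, 3 to 5 for differentiated cells at 6 h against 1 h, and 0 to 1 for the stage difference at 6 h, where 12 of 16 fits lost Nr4a3.

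Signs turned only for values that had not passed. They were, for stretch, Nab1 in myoblasts at 1 h (-0.0023, no filter), Nab2 at 6 h (0.0031, at least 10 counts in every library), and in differentiated cells at 1 h Egr3 (-0.04 with the covariate, -0.033 with the block) and Nab1 (-0.011 with the block). For time they were Egr3 in myoblasts at 3 h (0.0009, no filter) and Nr4a2 in differentiated cells at 6 h (0.13 with the covariate, 0.14 with the block). For stage they were Egr3 at 1 h (-0.018 with the covariate, -0.011 with the block), Nab1 at 1 h (-0.004 with at least 10 counts, -0.019 with the block) and Nab1 at 3 h (-0.0015, no filter).

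Leaving out 1 library also turned signs, with these ranges. For stretch in myoblasts they were Egr3 -0.072 to 0.013, Nab1 -0.021 to 0.027 and Nr4a3 -0.20 to 0.093 at 1 h, Egr3 -0.067 to 0.0027 at 3 h, and Nab2 -0.041 to 0.047 and Nr4a1 -0.038 to 0.028 at 6 h. In differentiated cells they were Egr3 -0.037 to 0.0505 and Nab1 -0.0397 to 0.068 at 1 h, Nr4a1 -0.0899 to 0.044 and Nr4a2 0.00 to 0.11 at 3 h, and Nr4a3 -0.028 to 0.21 at 6 h. Against 1 h they were Egr3 -0.0495 to 0.036 at 3 h and Nr4a2 -0.074 to 0.011 at 6 h in myoblasts, and Egr2 -0.97 to 0.012 and Egr3 -0.024 to 0.072 at 3 h and Nr4a2 -0.30 to 0.12 at 6 h in differentiated cells. Between stages they were Egr1 -0.52 to 0.063, Egr3 -0.011 to 0.085, Nab1 -0.047 to 0.0602 and Nab2 -0.087 to 0.0008 at 1 h, Nab1 -0.028 to 0.0485 at 3 h, and Egr1 -0.024 to 0.087 at 6 h.

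The causes were not tested. Replicate numbers did not pair the samples: over 23 pairs with the same number the correlation of deviations ran from -0.07 to 0.11, 1 exceeded 0.1, and 8 libraries matched their own number best. Most libraries matched best a library of their own title code, for which the main tests held no term. Nr4a3 had 13 to 93 counts in myoblasts, which limits its precision, and 4 libraries a group from 2 or 3 experiments limit all results.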
